A study of Mus musculus with 6 samples.

Results

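Collagen chain genes are the mouse genes named Col, a type number, a and a chain number, such as Col1a1, and each encodes a chain of a collagen. Gene symbols were looked up from the Ensembl identifiers of the deposited count table, and 42 of its 22964 genes matched that form exactly. They comprise 11 genes of fibrillar collagens, 6 of the basement membrane type IV, 5 of the beaded filament type VI, 9 of the FACIT class (collagens that sit on the surface of fibrils with interrupted helices), 2 multiplexins (basement membrane zone collagens with many interruptions) and 9 genes outside these classes. The study concerns the lymphatic vessels of the meninges in ageing and in Alzheimer's disease, and these samples compare the RNA of the endothelial cells that line those vessels between young and old mice. The young group held 3 samples from male wild type C57BL/6J mice aged 2 to 3 months, and the old group held 3 samples from male wild type C57BL/6J mice aged 20 to 24 months, all untreated. Cells were sorted from the meninges as negative for CD45 and positive for CD31 and podoplanin. Mice of both ages came from a commercial supplier or the National Institute on Aging, and the sources used here do not give which sample had which origin. Nothing in the labels says whether a sample is 1 animal or a pool, so the p-values rest on the spread among these 6 samples, which may be technical.

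Collagens, most of them secreted, are proteins of 3 chains wound around each other, in which glycine recurs at a fixed spacing because no larger side chain has room at the centre of the helix. Fibrillar collagens assemble into the banded fibrils that give tissue its tensile strength and are made chiefly by fibroblasts. Type IV collagen forms the sheet-like network of the basement membrane under endothelium and epithelium, and type VI forms beaded filaments that link cells to the surrounding matrix. In the meninges, fibroblasts of the dura and arachnoid lay down fibrillar collagen, while endothelial and mural cells add basement membrane chains, and the initial lymphatics are known for a basement membrane that is thin or discontinuous.

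A feature all members share is visible in the coding exons. The names stand for collagen chains, so this repeat is not independent of the choice by name. The exons below were each chosen as the earliest 54-base coding exon, read in frame, within a glycine repeat of that gene's longest annotated coding sequence, taken from its longest repeat where that holds such an exon, and they show the repeat in the genes whose levels are described further on. Each is written 5′ to 3′ on the coding strand, and capitals mark codons for glycine, which start with GG. Positions are those of the GENCODE M21 annotation on GRCm38, the assembly that mm10 denotes.
Col1a1: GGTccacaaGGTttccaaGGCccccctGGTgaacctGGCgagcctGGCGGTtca
Col1a2: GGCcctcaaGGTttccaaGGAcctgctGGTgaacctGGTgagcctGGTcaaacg
Col3a1: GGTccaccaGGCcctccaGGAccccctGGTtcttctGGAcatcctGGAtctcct
Col12a1: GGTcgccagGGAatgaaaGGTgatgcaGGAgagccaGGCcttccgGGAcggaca
Col6a1: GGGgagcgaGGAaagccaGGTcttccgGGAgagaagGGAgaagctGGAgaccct
Col4a1: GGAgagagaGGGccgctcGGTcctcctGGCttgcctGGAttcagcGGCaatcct
The exon of Col1a1 lies at chr11:94939904-94939957, plus strand, that of Col1a2 at chr6:4515481-4515534, plus strand, and that of Col3a1 at chr1:45325360-45325413, plus strand. The exon of Col12a1 lies at chr9:79612916-79612969, minus strand, that of Col6a1 at chr10:76719623-76719676, minus strand, and that of Col4a1 at chr8:11245211-11245264, minus strand. Each of the 6 holds 6 glycine codons at a spacing of 9 bases, which largely follows from choosing exons within a repeat. Col1a1 has a further glycine codon directly after the last of them. The GG of the spaced codons matches in every pair for the same reason, so the counts of shared bases that follow have no baseline. The Col1a1 and Col1a2 exons, both the coding exon numbered 8, had the same base at 42 of 54 positions, the Col1a1 and Col3a1 exons at 35 and the Col1a1 and Col4a1 exons at 25.

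The unbroken length of that repeat set the fibrillar class apart from the others. The longest run of glycine codons at every 3 codons was 338 in Col1a1, 339 in Col1a2 and 344 in Col3a1, and it was 216 to 344 over the 11 fibrillar genes, where the shortest were those of Col24a1 (216) and Col27a1 (217). In the 6 basement membrane genes the longest run was 39 to 66, broken into 22 to 27 runs of at least 5 glycines. It was 32 to 113 over the FACIT genes, with 32 in Col12a1 and Col14a1, and 37 to 87 over the type VI genes, with 87 in Col6a1 and Col6a2, so these ranges overlapped with that of the basement membrane genes. It was 30 in both multiplexin genes. Of the coding exons that carry the repeat, 54.95% (305 of 555) were exactly 54 bases long in the fibrillar class, against 4.478% (12 of 268) in the basement membrane class and 38.71% (108 of 279) in the FACIT class. Col12a1 is mostly not collagenous: 8.124% of its codons lay in such runs, against 77.19% of those of Col1a2.

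The estimated counts summed to 14285794 to 21043945 per sample. Levels are given in CPM, which are counts scaled to a common library size adjusted by trimmed means (TMM), groups as mean ± SD over 3 samples, and values by sample in the order 1, 2 and 3. Lymphatic markers were present in every sample, with Prox1, the transcription factor of lymphatic endothelial fate, at 877 to 1409.6 CPM, but fibroblast, mural and macrophage transcripts were present too. These levels do not give the share of lymphatic cells, and young cells and old cells below mean the sorted samples of each age. In such bulk samples fewer cells of a type and less RNA per cell cannot be told apart. The 22 fibroblast markers other than collagens summed to 5456, 4446 and 4048 CPM in the young samples and 3260.4, 4771 and 4194 CPM in the old samples, and 2 of them, Crabp2 and Dpt, had no counts in some sample. Their median log2 fold change was −0.60 over the 21 tested, with 14 lower in old cells, and their part in the collagen values was not tested beyond the ratios given further on.

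No collagen gene passed the adjusted edgeR test, and the values below are levels and counts. The summed levels of fibrillar and FACIT collagens were lower in every old sample than in every young one, those of beaded filament collagens had a lower mean but overlapped, and those of the basement membrane had about the same mean. All collagen transcripts together summed to 10236, 8586 and 7174 CPM in the young samples and 3925, 4632 and 5177 CPM in the old samples, so every old sample lay below every young one. The mean went from 8665 ± 1532 to 4578 ± 628 CPM, a ratio of young to old of 1.89. Of the 42 genes, 34 had counts enough to be tested, and 20 of these had a mean of at least 20 CPM. A gene could pass on counts in 3 samples of either age alone, so the counts below describe the genes that passed and not all members. The edgeR quasi-likelihood test with Benjamini-Hochberg adjustment over 15394 genes called 0 collagen genes, as it called 0% of all genes, and the lowest adjusted p of a collagen gene was 0.235, that of Col1a2. At an unadjusted p under 0.05, edgeR counted 9 collagen genes lower and 1 higher in old cells, where the shares over all genes tested were 2.7% lower and 2.86% higher. The 9 were Col1a1, Col1a2, Col3a1, Col5a1, Col11a1, Col12a1, Col6a1, Col6a3 and Col8a1, and the 1 was Col4a3. Every old sample lay below every young sample in 11 of the 34, against 6.44% of all genes tested, and above in 0, against 5.56%. DESeq2 called 3, all lower, where it called 0.416% of all genes lower and 0.429% higher, and limma-voom called 0, against 0.0065% lower and 0.013% higher. The median log2 fold change over the 34 was −0.70, against 0.02 over all genes tested, with 24 negative and 10 positive. Among the 20 collagen genes of at least 20 CPM, all old samples lay below all young ones in 10, against 5.44% of all tested genes at that level, and above in 0, against 7.37%. At an unadjusted p under 0.05, 9 of the 20 were lower, against 3.02%, and 0 higher, against 4.43%.

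**Figure D1:**
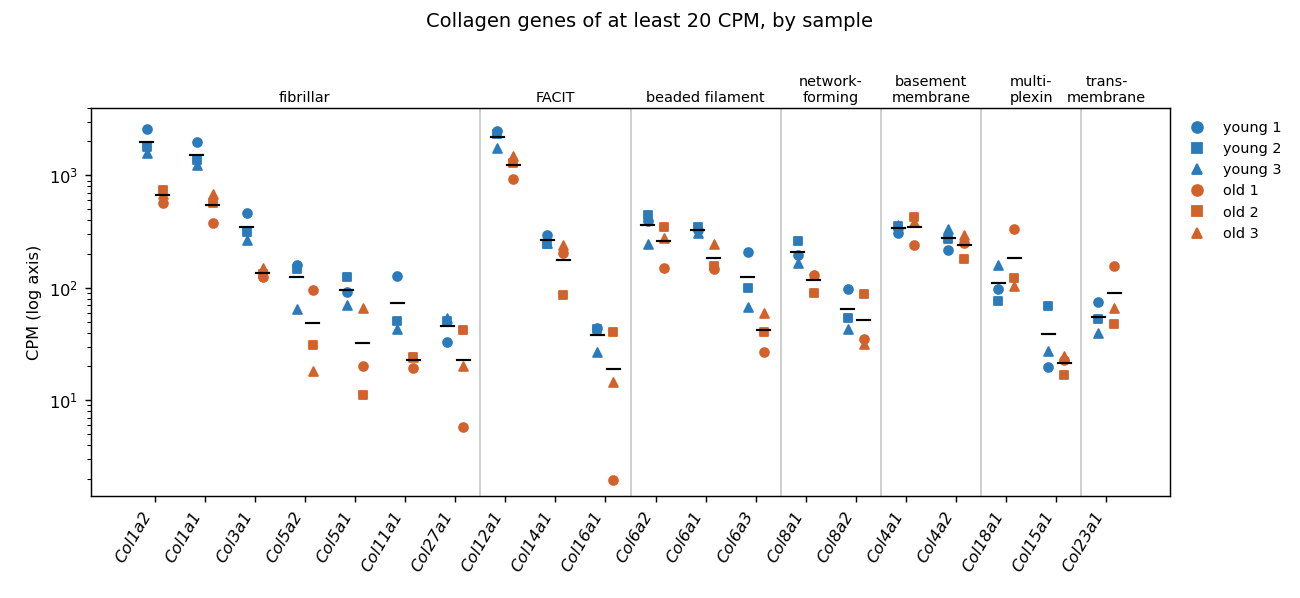
CPM on a log axis for the 20 collagen genes with a mean of at least 20 CPM, grouped by class, with blue points for the 3 young and orange points for the 3 old samples (circle, square and triangle for samples 1, 2 and 3) and black bars for the group means. In 10 of the 20 all old points lie below all young points, and in none do all lie above.

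Fibrillar collagens were the largest class in young cells and had the largest difference among the 5 named classes. Their summed level was 5427, 3866 and 3326 CPM in the young samples and 1212, 1569 and 1675 CPM in the old samples, or 48.1% ± 4.28 of all collagen CPM in young and 32.4% ± 1.49 in old cells. Type I collagen, a trimer of products of Col1a1 and Col1a2, led the class. Col1a2 (ENSMUSG00000029661; chromosome 6, 4504814 to 4541544, plus strand) had 2577, 1791 and 1581 CPM in the young samples and 565, 748 and 689 CPM in the old samples. Its mean was 2.97 times as high in young cells, with a log2 fold change of −1.57 (SE 0.23), an edgeR adjusted p = 0.235 and a DESeq2 adjusted p = 0.0013. Col1a1 (ENSMUSG00000001506; chromosome 11, 94936224 to 94953042, plus strand) had 1974, 1380.2 and 1241 CPM in the young samples and 379.8, 573 and 682 CPM in the old samples, with a log2 fold change of −1.49 (SE 0.27), an edgeR adjusted p = 0.372 and a DESeq2 adjusted p = 0.015. For both genes every old sample was below every young one, and young sample 1 was the highest of the 6.

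Type III collagen, whose trimer is made of Col3a1 products alone and which joins type I in the fibrils of compliant tissue, had its young samples in the same order as the type I chains. Col3a1 (ENSMUSG00000026043; chromosome 1, 45311538 to 45349706, plus strand) had 461, 313 and 267 CPM in the young samples and 125, 132 and 149 CPM in the old samples, so the old samples were close together and all below the young ones. Its log2 fold change of −1.36 (SE 0.28) had an edgeR adjusted p = 0.583 and a DESeq2 adjusted p = 0.028. Among the chains that start and limit fibril growth, type V is represented by Col5a1, Col5a2 and Col5a3 and the related type XI by Col11a1 and Col11a2. Col5a1 (ENSMUSG00000026837) had 92.5, 126 and 70.0 CPM in the young samples and 20.2, 11.3 and 66.2 CPM in the old samples, with old sample 3 just under the lowest young sample. Its log2 fold change of −1.56 (SE 0.67) had an edgeR adjusted p = 0.888. The unadjusted p was under 0.05, which 5 of the 6 fits with a sample left out took past 0.05, and the fold change went to −2.61 without old sample 3. Col5a2 (ENSMUSG00000026042) had 159, 147 and 65.4 CPM in the young samples and 96.2, 30.9 and 18.4 CPM in the old samples, and old sample 1 overlapped with the young samples. Its log2 fold change of −1.35 (SE 0.65) had an edgeR adjusted p = 0.89, and it was −2.33 without old sample 1.

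Col11a1 (ENSMUSG00000027966), better known from cartilage but also found in fibroblast matrix, had 128, 50.3 and 43.3 CPM in the young samples and 19.5, 24.2 and 24.4 CPM in the old samples. The old samples were all below the young ones, and young sample 1 stood well above the other young samples. Its log2 fold change of −1.70 (SE 0.56) had an edgeR adjusted p = 0.847 and became −1.04 without young sample 1, with an unadjusted p no longer under 0.05. Of cartilage genes, Comp, an oligomeric matrix protein, had 164, 58.1 and 25.1 CPM in the young samples and 49.5, 49.8 and 20.7 CPM in the old samples, also highest in young sample 1. The 10 bone and cartilage markers in the table summed to 839.8, 500.1 and 388 CPM in the young samples and 455, 362 and 462 CPM in the old samples, while Col2a1, the main collagen of cartilage, had 21 counts over the 6 samples. Their part in the Col11a1 value was not tested. Col27a1 had 32.9, 51.0 and 53.5 CPM in the young samples and 5.76, 42.2 and 20.1 CPM in the old samples and overlapped between the ages, with an edgeR adjusted p = 0.932. Col5a3 was the only fibrillar gene tested with a positive value, at 0.748 to 18.7 CPM and with its highest level in old sample 3. Col11a2, Col24a1 and Col2a1 were too low to test, with at most 6.93 CPM in any sample.

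FACIT collagens were second in mean level at both ages. In old sample 3 their sum of 1765 CPM was above the fibrillar sum of 1675 CPM. Most of the FACIT sum was Col12a1, which encodes the chain of type XII collagen, a long protein of fibronectin type III repeats that binds the surface of type I fibrils. Col12a1 (ENSMUSG00000032332; chromosome 9, 79598991 to 79718831, minus strand) had 2461, 2343 and 1768 CPM in the young samples and 932, 1296 and 1492 CPM in the old samples. No other collagen gene had more CPM over the 6 samples, with a mean of 1715 CPM, although its transcript is long: per kilobase of transcript it came after Col1a2 and Col1a1 in young cells (190.3 CPM per kilobase against 371 and 258). All old samples were below all young samples, with a log2 fold change of −0.82 (SE 0.22) and an edgeR adjusted p = 0.693. The value ran from −0.98 to −0.65 over the 14 settings tried. Col14a1 (ENSMUSG00000022371), encoding the related type XIV chain, had 293, 247 and 251 CPM in the young samples and 203, 85.6 and 240.2 CPM in the old samples, where the highest old sample was only just below the lowest young one. Its log2 fold change of −0.58 (SE 0.38) had an edgeR adjusted p = 0.917, and it was −0.25 without old sample 2 and −0.87 without old sample 3. Col16a1 had 44.2, 42.7 and 26.6 CPM in the young samples and 1.95, 40.5 and 14.5 CPM in the old samples, with old sample 1 near 0 and old sample 2 among the young values. Col20a1, Col22a1 and Col9a3 were tested at means of 6.73 to 9.46 CPM and overlapped between the ages, and Col9a1, Col9a2 and Col19a1 were too low to test.

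Type VI collagen, whose beaded filaments surround cells in most connective tissue, had lower means in old cells for all 3 of its widely expressed chains, and 2 of these had groups that did not overlap. Col6a1 (ENSMUSG00000001119; chromosome 10, 76708792 to 76726168, minus strand) had 327, 344 and 307 CPM in the young samples and 146, 157 and 246 CPM in the old samples. Young samples lay within a narrow band above all old ones, with a log2 fold change of −0.83 (SE 0.27) and an edgeR adjusted p = 0.837. Col6a2 (ENSMUSG00000020241) had 391, 443 and 245 CPM in the young samples and 149, 351 and 279 CPM in the old samples, overlapping between the ages, and a log2 fold change of −0.47 (SE 0.36), which was −0.20 without old sample 1. Col6a3 (ENSMUSG00000048126), the longest of the chains, had 209, 99.0 and 67.6 CPM in the young samples and 27.1, 40.8 and 59.6 CPM in the old samples. Every old sample was below every young one, but young sample 1 stood above the rest, and the log2 fold change of −1.56 (SE 0.52) became −0.97 without it. Of the chains with restricted expression, Col6a6 had 8, 95 and 40 counts in young against 2, 3 and 2 in old samples, all old samples being lower, and Col6a5 had counts in old samples 2 and 3 only, at 5.16 and 61.7 CPM. Neither passed the filter on low counts, so neither was tested.

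Type VIII collagen, a short network-forming collagen of vessel walls and of the corneal endothelium, had 1 chain gene whose ages did not overlap. Col8a1 (ENSMUSG00000068196; chromosome 16, 57624258 to 57754737, minus strand) had 195, 262 and 166 CPM in the young samples and 129.5, 89.2 and 129.9 CPM in the old samples. The groups did not overlap, with a log2 fold change of −0.84 (SE 0.31) and an edgeR adjusted p = 0.888. Its unadjusted p was under 0.05, but not without young sample 2 or without old sample 2. Col8a2 had 98.5, 54.4 and 42.9 CPM in the young samples and 34.9, 88.8 and 31.7 CPM in the old samples, and old sample 2 was among the highest values. Its log2 fold change of −0.33 turned to 0.08 without young sample 1.

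Basement membrane collagen had the same mean in young and old cells. The 6 type IV genes summed to 565, 640.1 and 707 CPM in the young samples and 529.9, 668 and 714 CPM in the old samples, or 637 ± 70.9 CPM in young against 638 ± 96.0 CPM in old cells. Their share of all collagen CPM was 5.52%, 7.46% and 9.85% in young against 13.5%, 14.4% and 13.8% in old samples, so all old shares were above all young shares. As the type IV sum had the same mean, these shares are not separate from the lower total of all collagen in old cells. Col4a1 (ENSMUSG00000031502; chromosome 8, 11198423 to 11312826, minus strand) had 309.8, 357 and 365 CPM in the young samples and 241, 426 and 382 CPM in the old samples. Col4a2 (ENSMUSG00000031503; chromosome 8, 11312805 to 11449287, plus strand), its partner in the common type IV trimer, had 218, 273 and 333 CPM in the young samples and 251, 181 and 294 CPM in the old samples. The young and old values of both genes lay among each other. Col4a1 had a log2 fold change of 0.02 (SE 0.26), whose sign changed under several settings, and Col4a2 had a log2 fold change of −0.18 (SE 0.28). The chains of specialised basement membranes were low. Col4a5 had 23.4, 4.57 and 3.15 CPM in the young samples and 26.5, 16.0 and 30.4 CPM in the old samples. Col4a3 was the 1 collagen gene higher in old cells at an unadjusted p under 0.05 (edgeR adjusted p = 0.888), and no collagen gene was higher at that threshold (0 in edgeR) without old sample 2. Col4a3 was under that threshold in 7 of the 14 settings tried, and it had 0.372, 1.32 and 2.88 CPM in the young samples and 1.05, 44.8 and 6.40 CPM in the old samples. Col4a4 and Col4a6 had at most 10.5 CPM in any sample.

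The multiplexins Col18a1 and Col15a1 encode chains that join the basement membrane to the matrix below, and the C-terminal fragment of the Col18a1 product is endostatin, an inhibitor of vessel growth. Col18a1 (ENSMUSG00000001435; chromosome 10, 77052178 to 77166548, minus strand) had 97.2, 76.6 and 160.3 CPM in the young samples and 331, 124 and 103 CPM in the old samples. Old sample 1 was above every other sample, and the others overlapped. The log2 fold change of 0.74 (SE 0.50) became 0.03 without old sample 1, and the class sum, at a log2 ratio of 0.47, became −0.16. Old sample 1 also had the highest sum of pericyte and smooth muscle markers, at 2224 CPM against 698 to 1353 CPM in the others, with Myh11, the smooth muscle myosin, at 668 CPM, and their part in the Col18a1 value was not tested. Col15a1 had 19.9, 68.6 and 27.5 CPM in the young samples and 22.9, 16.7 and 24.6 CPM in the old samples, with young sample 2 alone above the rest.

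Of the genes outside these classes, Col23a1, which encodes a transmembrane collagen of the cell surface, was at a level like that of the minor fibrillar chains. It had 74.5, 52.7 and 39.4 CPM in the young samples and 156, 47.9 and 65.7 CPM in the old samples, and old sample 1 was again the highest while the others overlapped. Col10a1, the collagen of hypertrophic cartilage, reached 39.4 CPM in old sample 1 and was at most 6.91 CPM in the others. Col26a1 reached 19.2 CPM in old sample 3 and was at most 2.18 CPM elsewhere. Col13a1, a transmembrane collagen of cell junctions, had 2.05, 1.98 and 1.62 CPM in the young samples and 0.150, 0.0726 and 0.781 CPM in the old samples, low but with no overlap. Col25a1, Col28a1 and Col7a1, the last of which forms the anchoring fibrils under epithelium, had under 3 CPM in each sample.

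**Figure D2:**
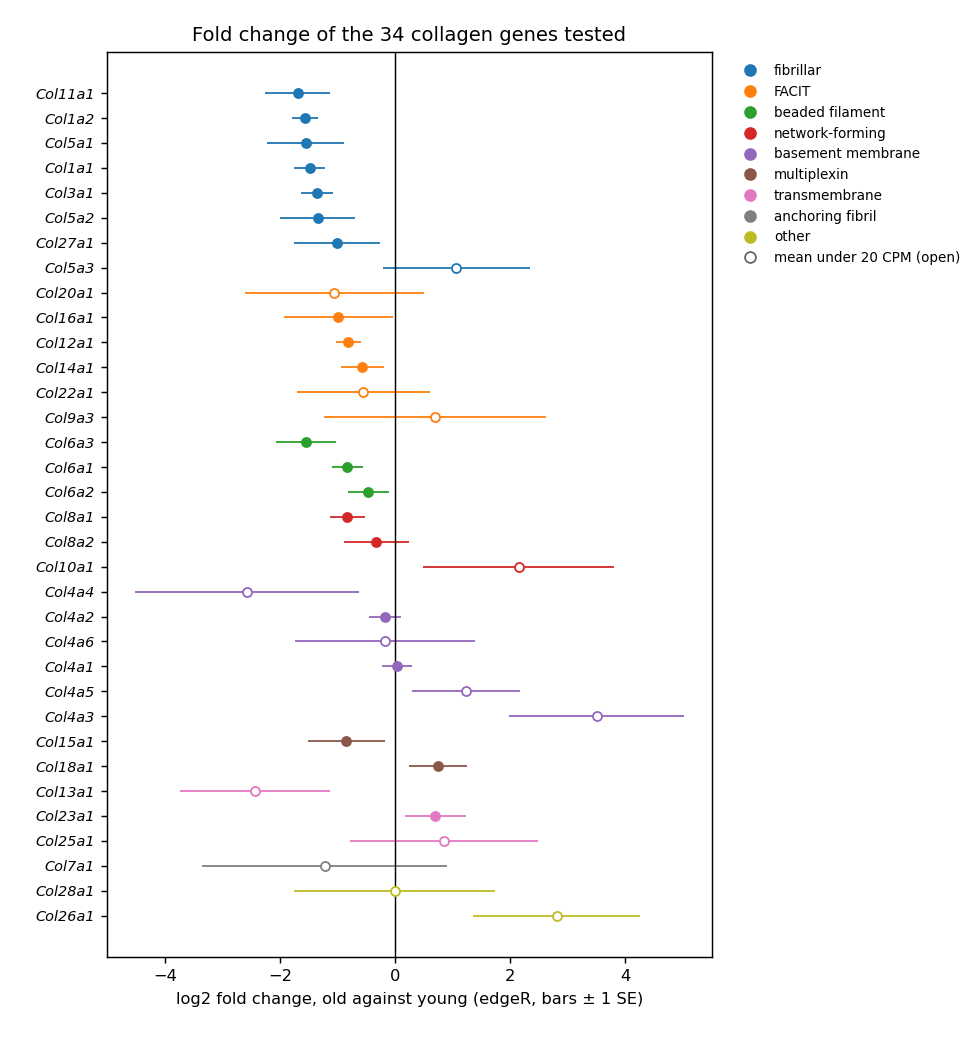
Log2 fold change of old against young cells from edgeR with bars of 1 SE for the 34 collagen genes tested, coloured by class, with open circles for genes whose mean is under 20 CPM. The 7 fibrillar genes of at least 20 CPM lie between −1.70 and −1.01, while Col4a1 and Col4a2 lie at 0.02 and −0.18.

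The class sums differed in size and direction. On the log2 scale of group means, the ratio of old to young was −1.50 for the fibrillar class, −0.79 for FACIT, −0.68 for beaded filaments, −0.59 for the network-forming class, 0.00 for the basement membrane class and 0.47 for the multiplexins. It was 0.66 for the 3 transmembrane genes, where old sample 1 was highest, 2.36 for the 2 genes of no class, Col26a1 and Col28a1, whose sum was 20.4 CPM in old sample 3 and at most 2.70 CPM elsewhere, and −1.23 for Col7a1, which had at most 2.29 CPM. The fibrillar and FACIT sums did not overlap between the ages. The beaded filament sums did, since old sample 3 with 646 CPM was above young sample 3 with 622 CPM. Without Col1a1, Col1a2 and Col12a1, the other 39 genes summed to 2960.1 ± 334 CPM in young against 2126 ± 164 CPM in old cells. These sums are dominated by their most abundant members and carry no test.

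**Figure D3:**
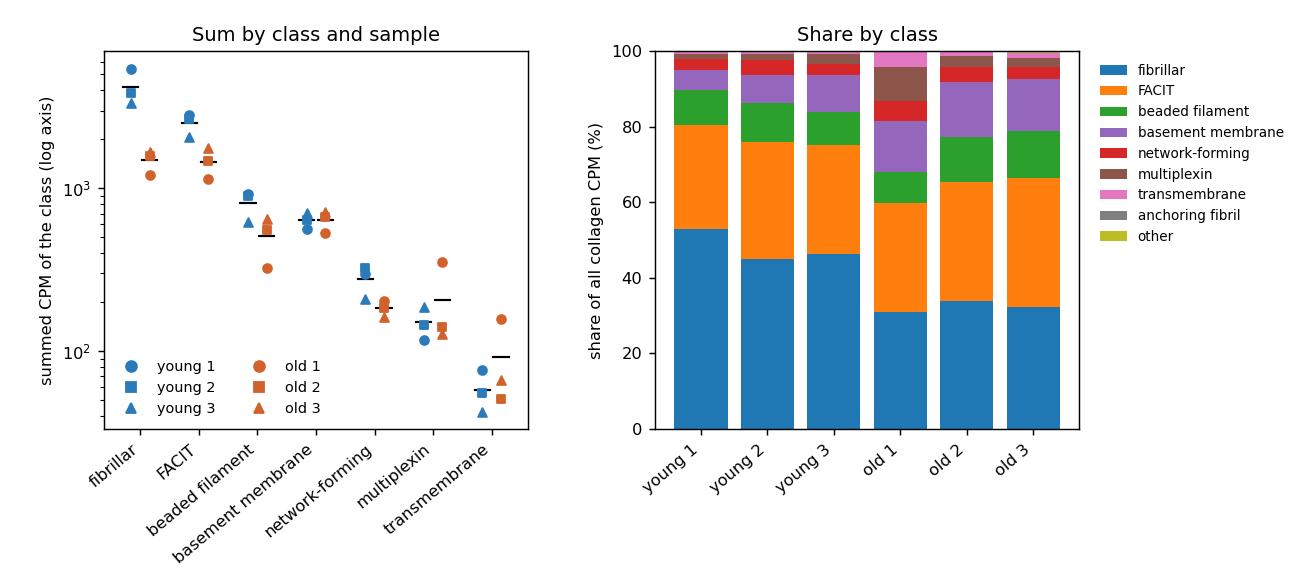
Left, summed CPM per class and sample on a log axis with black bars for group means. Right, share of each class in all collagen CPM per sample. The fibrillar share is 45.0% to 53.0% in young and 30.9% to 33.9% in old samples, and the basement membrane sum overlaps between the ages.

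The ratio of the type I collagen chains to each other overlapped between the ages, while the ratios of Col12a1 and Col4a1 to Col1a2 did not. Ratios were taken per sample between levels in CPM per kilobase of the longest annotated coding transcript. The level of Col1a1 over that of Col1a2 was 0.691, 0.695 and 0.708 in young against 0.606, 0.691 and 0.892 in old samples, nearly constant in young cells and overlapping between the ages. With the union of all annotated exons as the length, the mean of this ratio over the 6 samples went from 0.714 to 1.50, so its absolute size depends on the transcript model. Col1a2 over Col3a1 was 5.81, 5.95 and 6.17 in young against 4.71, 5.91 and 4.80 in old samples. The ratio of Col4a1 to Col4a2 was 1.38, 1.27 and 1.07 in young against 0.936, 2.30 and 1.27 in old samples, with old sample 2 set apart, and that of Col6a1 to Col6a2 was 0.948, 0.881 and 1.42 in young against 1.11, 0.509 and 1.00 in old samples. Across types, Col12a1 over Col1a2 was 0.444, 0.608 and 0.520 in young against 0.766, 0.805 and 1.01 in old samples, and Col4a1 over Col1a2 was 0.0972, 0.161 and 0.186 in young against 0.345, 0.461 and 0.448 in old samples. In these 2 ratios every old sample was above every young one, and 3 samples against 3 cannot give an exact two-sided permutation p below 0.1. Both ratios have Col1a2 as the denominator, so they are not separate from its lower level in old cells. The other ratios taken, Col5a1 to Col5a2, Col8a1 to Col8a2, Col6a1 to Col6a3 and Col18a1 to Col15a1, overlapped between the ages.

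Several members lie next to each other in the genome, and neighbours did not always have like values. Col3a1 and Col5a2 lie tail to tail on chromosome 1, 24614 bases apart with no coding gene between, and had log2 fold changes of −1.36 and −1.35. Col4a1 and Col4a2 lie head to head on chromosome 8 with annotated starts that overlap by 22 bases, and had 0.02 and −0.18. The sources used here do not give a strand setting of the counting, so reads from the shared bases cannot be assigned to either. The other type IV pairs are also head to head: Col4a3 and Col4a4 with 71 bases between and Col4a5 and Col4a6 with 1308 bases between, all 4 at low counts. Col6a1 and Col6a2 follow each other in the same direction on chromosome 10, 85161 bases apart, with −0.83 and −0.47, and Col18a1, which lies on the same side 326009 bases further, had 0.74.

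Promoter windows were matched in the RefSeq table on GRCm38.p6 for 33 of the 42 genes, as 36 windows, and the 250 bases before each start were searched on both strands for the TATA box letters TATAAA, for the CCAAT box and for the GC box letters GGGCGG. The 150 bases directly before the start are shown for 3 fibrillar genes that had lower levels in old cells without overlap and whose window holds no annotated exon, with matches in capitals in whichever strand they occurred.
Col3a1: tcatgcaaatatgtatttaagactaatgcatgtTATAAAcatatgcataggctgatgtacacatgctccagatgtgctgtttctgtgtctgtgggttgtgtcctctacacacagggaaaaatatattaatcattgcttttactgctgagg
Col5a1: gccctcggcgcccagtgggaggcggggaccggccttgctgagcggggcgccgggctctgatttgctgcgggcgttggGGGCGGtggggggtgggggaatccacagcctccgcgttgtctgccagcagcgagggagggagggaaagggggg
Col11a1: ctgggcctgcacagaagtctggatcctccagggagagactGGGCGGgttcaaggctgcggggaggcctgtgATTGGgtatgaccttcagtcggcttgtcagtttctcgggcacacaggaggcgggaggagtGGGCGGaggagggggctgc
These lie at chr1:45311388-45311537 on the plus strand for Col3a1, at chr2:27886275-27886424 on the plus strand for Col5a1 and at chr3:114030390-114030539 on the plus strand for Col11a1. These 3 genes did not all hold the same letters. Col3a1 held TATAAA alone, 117 bases before the start. Col5a1 held GGGCGG alone, and Col11a1 held GGGCGG and CCAAT. Other fibrillar genes shared letters with them: Col1a2, whose window overlaps an annotated exon, held GGGCGG and CCAAT, and Col27a1 held GGGCGG alone. Col1a1, Col5a2 and Col12a1 were not among the 33 genes with a window. Over all 36 collagen windows, GGGCGG was present in 58.3%, against 32.7% of 32851 windows of all genes, CCAAT in 30.6% against 33.8%, and TATAAA in 11.1% against 12.4%. Overlapping matches were each counted. A match is a description of the letters and not of a bound factor.

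Genes for the enzymes and chaperones that build the helix had smaller differences, by their median, than the fibrillar chains. Of 25 genes for hydroxylation, folding and export of procollagen, 25 were tested, 18 had a negative and 7 a positive log2 fold change, and the median was −0.22, against −1.42 over the 8 fibrillar genes tested and 0.02 over all 15394 genes, of which 7546 were negative. At an unadjusted p under 0.05 edgeR counted 0 in either direction, against 2.7% lower and 2.86% higher of all genes tested. Every old sample lay below every young one in 4 of the 25 and above in 1, against 6.44% and 5.56% of all genes tested, and 20 overlapped. The most abundant were Hsp90b1, a general chaperone of the endoplasmic reticulum, with 997 ± 106 CPM in young against 879.6 ± 262 CPM in old cells, and Pdia3, a disulfide isomerase, with 393 ± 46.6 CPM in young against 400.4 ± 72.8 CPM in old cells. Serpinh1, the collagen-specific chaperone HSP47, named here after its values were seen, had 481, 331 and 229.7 CPM in the young samples and 115, 286 and 242 CPM in the old samples, overlapping between the ages. Of 16 genes for cleavage of the propeptides and crosslinking, 12 were tested, 7 negative and 5 positive, with a median of −0.06 and 0 at an unadjusted p under 0.05. Pcolce, an enhancer of C-propeptide cleavage, had 271 ± 72.5 CPM in young against 213 ± 58.5 CPM in old cells, and Adamts2, the main N-propeptidase, had 237 ± 122 CPM in young against 125 ± 62.7 CPM in old cells.

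Among genes for proteins that bind collagen fibrils, some differed in each direction. Of 15 such genes 13 were tested, 10 negative and 3 positive, with a median of −0.59, and at an unadjusted p under 0.05 edgeR counted 4 lower and 1 higher, against 2.7% and 2.86% of all genes tested. All old samples lay below all young ones in 4 of the 13 and above in 2, and 7 overlapped. All 13 had a mean of at least 20 CPM, and the shares over all tested genes at that level were 5.44% below and 7.37% above. Matn2, a matrilin that bridges matrix filaments, had 57.8, 84.0 and 79.0 CPM in the young samples and 42.3, 37.5 and 29.7 CPM in the old samples. Lum, which encodes the fibril-spacing proteoglycan lumican, had 159.8 ± 39.4 CPM in young against 71.0 ± 14.2 CPM in old cells, and Sparc, a glycoprotein that binds fibrillar collagen, had 2548 ± 134 CPM in young against 1206 ± 152 CPM in old cells. Against these, Tnxb, which encodes the fibril-associated glycoprotein tenascin-X, had 84.9, 23.4 and 25.5 CPM in the young samples and 146, 102 and 245 CPM in the old samples, higher in old cells without overlap (edgeR adjusted p = 0.809). None of these 4 passed the edgeR test adjusted over all genes.

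The list of collagen breakdown genes, which includes inhibitors of breakdown, held values in both directions. Of 20 listed, 17 were tested, 10 negative and 7 positive, with a median of −0.04, and edgeR counted 2 lower and 3 higher at an unadjusted p under 0.05, against 2.7% and 2.86% of all genes tested. The 3 higher, Timp3, Timp1 and Reck, encode inhibitors, and the 2 lower, Mrc2 and Mmp13, encode an uptake receptor and a collagenase. Mrc2, a receptor that takes up collagen fragments into fibroblasts, had 657, 430.3 and 357 CPM in the young samples and 219, 231 and 321 CPM in the old samples, with all old samples lower. Timp3, a matrix-bound inhibitor of metalloproteinases, had 2046, 1908 and 1761 CPM in the young samples and 3406, 2585 and 3774 CPM in the old samples, with all old samples higher (log2 fold change 0.77, SE 0.17). Timp1, a secreted inhibitor, had 10.2, 18.2 and 1.98 CPM in the young samples and 6.88, 94.7 and 85.3 CPM in the old samples, so old samples 2 and 3 were high and old sample 1 was among the young. Reck, a membrane-anchored inhibitor of metalloproteinases, had 71.3 ± 21.9 CPM in young against 135 ± 52.0 CPM in old cells. The other gene lower at an unadjusted p under 0.05 was Mmp13, a collagenase, with 34.8, 37.3 and 3.20 CPM in the young samples and 0, 0 and 1.27 CPM in the old samples. It falls outside the naming rule for its low level and was named after its values were seen. Of 11 collagen receptor genes, 10 were tested, 7 negative and 3 positive, with 0 at an unadjusted p under 0.05. Itgb1, the beta chain of the collagen-binding integrins, had 368, 466 and 428 CPM in the young samples and 553, 484 and 595 CPM in the old samples, with all old samples higher. It was the 1 of the 10 receptor genes with this, 0 were lower and 9 overlapped, against 5.56% above and 6.44% below of all genes tested. Cd93, an endothelial receptor for matrix glycoproteins, had 646 ± 207 CPM in young against 737 ± 127 CPM in old cells.

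**Figure D4:**
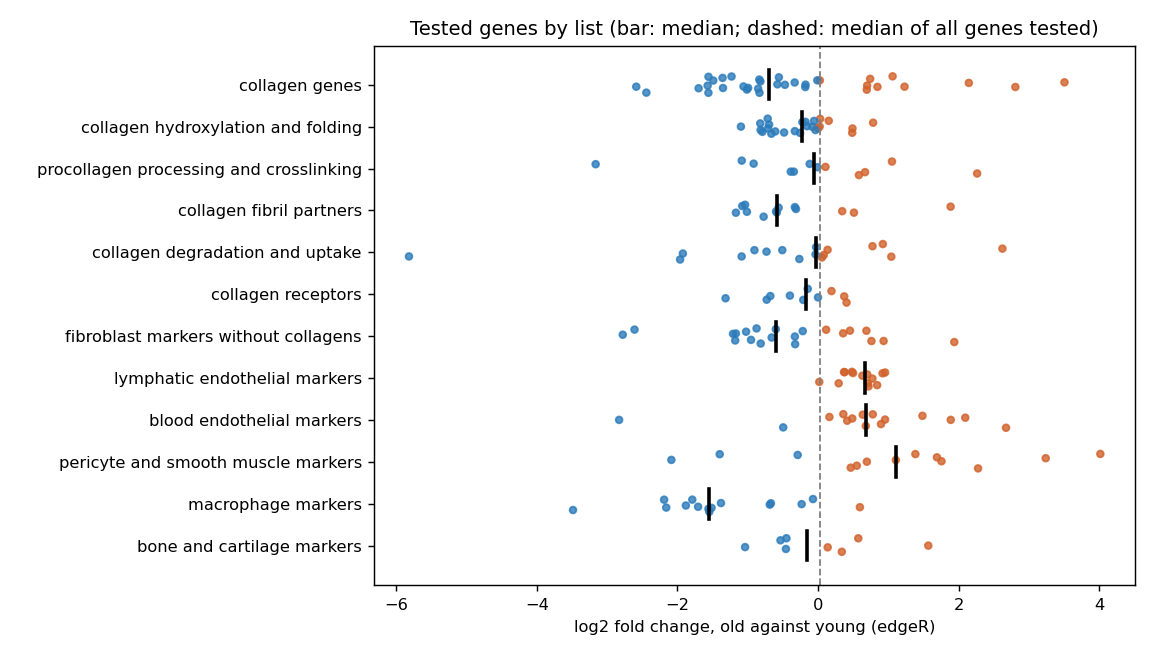
Log2 fold change of old against young cells for the tested genes of each list described, blue below and orange above 0, with a black bar at the list's median and a dashed line at the median of all genes tested. The collagen median is −0.70, that of the fibroblast markers −0.60 and that of the lymphatic markers 0.66.

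Whether fibrillar collagen was lower relative to other fibroblast transcripts of the same sample depended on the transcript. Of the 21 fibroblast markers tested, edgeR counted 6 lower and 2 higher at an unadjusted p under 0.05, against 2.7% and 2.86% of all genes tested. Fbln1, a fibulin of the matrix, had 336 ± 69.7 CPM in young against 145 ± 46.8 CPM in old cells, Postn, a matricellular protein, had 95.1 ± 69.6 CPM in young against 13.9 ± 8.53 CPM in old cells, and Serpinf1, a secreted serpin, had 626 ± 216 CPM in young against 323 ± 30.2 CPM in old cells. Each of these 3 was lower in every old sample, and they show only the lower side. Over the 21 markers, every old sample lay below every young one in 7 and above in 1, and 13 overlapped. The shares over all genes tested were 6.44% below and 5.56% above. In contrast, Dcn, which encodes decorin, had 625, 669 and 698 CPM in the young samples and 767, 364 and 454 CPM in the old samples, and Pdgfra, a receptor that defines fibroblasts, had 149.9, 108 and 73.3 CPM in the young samples and 74.0, 115 and 74.8 CPM in the old samples, with no separation between the ages. The summed fibrillar CPM divided by the summed CPM of the 22 markers was 0.995, 0.870 and 0.822 in young against 0.372, 0.329 and 0.399 in old samples, with no overlap. Without Ptgds, a prostaglandin synthase at 1750.1 CPM in old sample 2, it was 1.05, 0.913 and 0.868 in young against 0.386, 0.519 and 0.508 in old samples. Divided by Pdgfra alone, it was 36.2, 35.8 and 45.4 in young against 16.4, 13.6 and 22.4 in old samples, and by Dcn alone 8.68, 5.78 and 4.76 in young against 1.58, 4.31 and 3.69 in old samples, again without overlap. Of the 17 markers with at least 20 CPM and counts in every sample, the ratio was lower in every old than in every young sample for 9, overlapped for 8 and was higher for 0. The fibrillar sum and Col12a1 were themselves lower in every old sample, so their ratios here are not separate from those lower levels. The count over markers has no baseline, as the share over all genes as denominators is not given here. Divided by Fbln1 it was 13.5, 11.3 and 12.6 in young against 12.4, 10.7 and 8.77 in old samples, and by Lum 26.5, 29.6 and 23.1 in young against 17.7, 26.9 and 19.4 in old samples, both with overlap. For Col12a1 the ratio to the 22 markers was 0.451, 0.527 and 0.437 in young against 0.286, 0.272 and 0.356 in old samples, without overlap, but over the same 17 markers it was lower for 5, overlapped for 10, Pdgfra and Dcn among them, and was higher for 2, Fbln1 and Pi16. The ratio of the beaded filament sum to the 22 markers overlapped between the ages, at 0.170, 0.200 and 0.154 in young against 0.0988, 0.116 and 0.154 in old samples. Dcn and Lum stand in both this list and that of fibril partners.

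**Figure D5:**
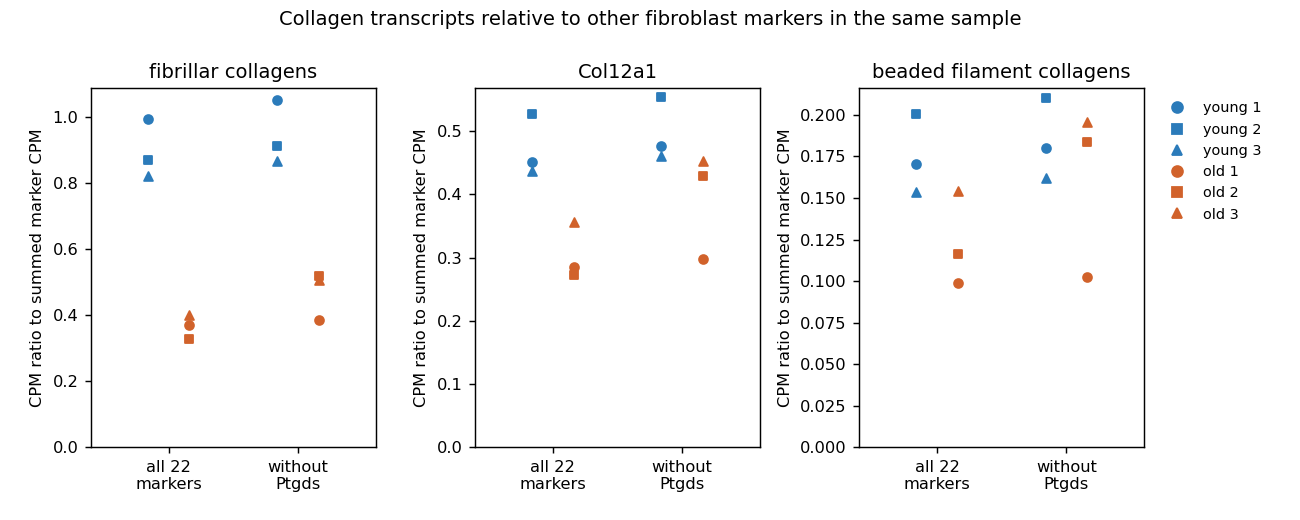
Ratio of the summed CPM of fibrillar collagens, Col12a1 and beaded filament collagens to the summed CPM of 22 other fibroblast markers in the same sample, with and without Ptgds, for each of the 6 samples. The fibrillar ratio is at least 0.822 in young and at most 0.399 in old samples over all 22 markers.

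Markers of the other cell types that could carry collagen transcripts moved in their own ways. The 14 lymphatic endothelial markers summed to 13603 to 16298 CPM in young and 20026 to 25162 CPM in old samples, and all 14 had a positive log2 fold change. The 16 blood endothelial markers summed to 1184 to 1466 CPM in young and 2138 to 2671 CPM in old samples, with 13 of 15 tested positive and Ackr1 and Mfsd2a at 0 in some sample. The 13 pericyte and smooth muscle markers in the table summed to 698 to 947 CPM in young and 1033 to 2224 CPM in old samples, with 10 positive and 3 negative and Cnn1, Cspg4 and Des at 0 in some sample. The 15 macrophage markers summed to 859 to 4692 CPM in young and 867 to 2277 CPM in old samples, with 14 negative, young sample 1 and old sample 1 lowest, and Cd163, Pf4 and Tyrobp at 0 in some sample. Of the bone and cartilage markers given above, Bglap, Dmp1, Ibsp and Spp1 were at 0 in some sample. The part of these cell types in the collagen values was not tested.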

How the data were processed

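RNA of 3 young and 3 old samples was sequenced after linear amplification, per the labels' protocols. The deposited table holds estimated counts per gene, and FastQC, Salmon and the build mm10 are named in the submitters' processing notes. Salmon divides reads among similar transcripts. Versions, the gene annotation, strandedness and the step from transcripts to genes are not stated in these sources. The estimated counts were whole numbers as deposited by the authors, and 0 columns were left unused.

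Identifiers were matched to symbols, positions, transcript lengths and coding exons in GENCODE M21 (GRCm38), with a symbol for 22738 of 22964 genes. Promoter windows came from a RefSeq table on GRCm38.p6. Protein sequences were not used here. Genes passing filterByExpr (minimum count 10, minimum total 15; 7570 removed) were fitted in edgeR 4.0.16 (robust quasi-likelihood, TMM scaling, two-sided, R 4.3.3), with Benjamini-Hochberg adjustment over 15394 genes and a threshold of 0.05. The fit was tested on simulated data. Alternatives were other scalings and filters, DESeq2 1.42.0, limma-voom (limma 3.58.1), a replicate block and leaving out each sample. Class sums and chain ratios were computed in Python 3.11.15 with pandas 2.3.3 and drawn with matplotlib 3.10.9.

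Samples were compared by count, and chi-square divided by its degrees of freedom was at least 113.9 for every pair, so no library appears under 2 names. Depth was 14285794 to 21043945 counts per sample.

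The members and the gene lists were chosen with earlier results of these data known. Values in every sample are given for collagen genes with a mean of at least 20 CPM and for those of at least 5 CPM whose ages do not overlap. From each other list up to 4 genes of at least 20 CPM with an unadjusted p under 0.05 are named by smallest p, and otherwise the 2 with the highest mean CPM. Prox1, Pdpn, Pecam1, Dcn and Pdgfra could be named in any case. Genes outside this rule, such as low members given for completeness, were named after their values were seen. A list of further cell type markers is not reported here.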

Additional observations from a re-analysis of the deposited data

How the results depend on the processing

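The count of collagen genes past the adjusted threshold was 0 in edgeR and stayed 0 under every alternative tried except DESeq2, which gave 3 (adjusted p 0.0149 for Col1a1, 0.00126 for Col1a2 and 0.0282 for Col3a1). The count lower at an unadjusted p under 0.05 was 9 in edgeR, against 2.7% of all genes tested, and ran from 7 to 10 with a sample left out. Col1a1, Col1a2, Col3a1, Col6a1 and Col12a1 were the 5 collagen genes lower at that threshold in all 14 settings. The share of all genes that stayed under it in all 14 is not given here, so this count has no baseline. The count higher was 1, against 2.86% of all genes tested, and the shares over all genes at that threshold in the other settings are not given here. The count higher was 0 with library size only, 0 in limma-voom, 0 with the replicate block, 2 with no filter, 2 with a mean of at least 50 counts and 0 to 2 with a sample left out. Library size only moved the median of all genes from 0.02 to −0.12.

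The basement membrane sum, at a log2 ratio of 0.00, was −0.13 with library size only. With a sample left out it ran from −0.09 to 0.12, being −0.08 without young replicate 1, −0.0027 without young replicate 2, −0.04 without old replicate 2 and −0.090 without old replicate 3. The multiplexin sum ran from −0.16 (without old replicate 1) to 0.72. The log2 ratio with a sample left out was −1.65 to −1.28 for fibrillar, −0.95 to −0.64 for FACIT and −0.89 to −0.44 for beaded filament sums. Col4a1, at 0.02, was −0.11 with library size only, −0.0017 in limma-voom, −0.013 with the replicate block, −0.05 without young replicate 1, −0.14 without old replicate 2, −0.05 without old replicate 3 and 0.23 without old replicate 1. Col8a2, at −0.33, ran from −0.97 without old replicate 2 to 0.084 without young replicate 1. With exon unions as lengths, chosen after seeing the data, the mean ratio of Col1a1 to Col1a2 was 1.50 and that of Col6a1 to Col6a2 was 1.64. The cause of these differences was not tested.

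Samples with the same number had correlations of their deviations from the group means of 0.079, 0.053 and −0.012. Young samples 1 and 2 correlated best with the old sample of their own number, and young sample 3 with old sample 2. Over all pairs of a young and an old sample the values were −0.095 to 0.079. The labels do not say that a number pairs samples, so the numbers were not taken to do so. With the replicate block, edgeR counted 10 collagen genes lower, 0 higher and 0 past the adjusted threshold. Leaving out 1 sample also took Col16a1 from −0.995 to −0.46 (old 1) or −2.19 (old 2), Col27a1 from −1.01 to −0.56 (old 1) or −1.82 (old 2), Col15a1 from −0.85 to −0.15 (young 2) and Col23a1 from 0.70 to 0.03 (old 1).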
